A study of Mus musculus with 7 samples.

Results

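The cell cycle genes are 49 genes picked by name for their known place in cell division, 23 that act mainly in G1 and S phase (G1/S) and 26 that act mainly in G2 and mitosis (G2/M). They were found on the arrays through the transcript accession of each probe, and the probe with the highest mean log2 signal stood for its gene. The arrays named 17178 genes, 48 of the 49 members among them. Ccnd1 had no named probe. Tests covered genes whose probe stood well above background in 3 or more of 7 arrays and kept 2 or more unflagged values in both groups, which held for 13341 genes and for 46 members, 21 of G1/S and 25 of G2/M. Ccne1 and Ccna2 had too few unflagged spots.

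Messenger RNA was measured in subpallium, dissected as ganglionic eminences with septum, from female mouse embryos of the CD-1 strain at E12.5. There were 4 control embryos and 3 labelled Otx2 cKO, which carried a floxed Otx2 allele and RxCre, and each gave 1 single-colour array. Per the series description RxCre acts across the forebrain but spares its caudal dorsomedial part, choroid plexus and cortical hem included. The labels do not say which alleles the control embryos carried. Arrays are named control 1 to 4 and cKO 1 to 3 after their replicate numbers. Litter 2 gave control 2, control 3, cKO 1 and cKO 3, and the other arrays came from 1 litter each. Slide 1 held control 1, control 2 and cKO 1, and slide 2 held control 3, control 4, cKO 2 and cKO 3.

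A dividing cell passes from G1 into S phase when D- and E-type cyclins with their kinases inactivate the retinoblastoma protein and release E2F transcription factors, which switch on genes for DNA licensing, replication and nucleotide synthesis. Genes of G2 and mitosis are switched on later, through promoter elements named CHR and CCAAT boxes, and encode mitotic cyclins, kinases and proteins of the centromere, spindle and cleavage furrow. In the ganglionic eminences at this age, progenitors of the ventricular and subventricular zones divide while their daughters leave the cycle and become neurons.

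In every array the signal is given as log2 of the spot signal relative to that array's 75th percentile, so 0 is the level of that percentile. Between 68.4% and 72.2% of spots per array were well above background and 0 spots were saturated. The probe of Otx2 itself was higher where the label says it was deleted, with log2 signals of 0.19, 0.55, 0.48 and 0.56 in control 1 to 4 and 1.78, 2.34 and 1.77 in cKO 1 to 3 (difference 1.52 ± 0.17, SE, limma adjusted p = 0.0356). The sources used here do not place the probe relative to the floxed part, so each direction below rests on the labels of the arrays. All 10 subpallial markers looked at, among them Nkx2-1, Dlx1 and Gad1, were tested. Of the choroid plexus markers, Ttr did not clear background on any array, whereas Prlr and Folr1 did so on 7 arrays and Kl on 3.

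The promoters of members show how G1/S and G2/M genes differ in sequence. RefSeq promoters of the GRCm38.p6 assembly, each 250 bases before to 50 bases after a gene's start, held 44 windows of 39 members, of which 20 windows belonged to 17 G1/S genes and 24 to 22 G2/M genes. A gene with several starts has several windows, which can overlap. Searched on both strands were the E2F words TTTGGCGC, TTTCGCGC and TTTCCCGC, the CHR words TTTGAA and TTTAAA and the word CCAAT, and matches of E2F words can overlap one another. An E2F word was found in 7 of the 20 G1/S windows (35%), in 1 of the 24 G2/M windows (4.17%) and in 1.84% of all 32851 promoters. For CHR the counts were 5 of 20 (25%) and 21 of 24 (87.5%), against 27.6% of all promoters. For CCAAT they were 12 of 20 (60%) and 21 of 24 (87.5%), against 37.4%. Both CHR and CCAAT were present in 4 of 20 (20%) and 19 of 24 (79.2%), against 3525 of the 32851 promoters. The Nusap1, Bub1 and Diaph3 windows were the 3 of G2/M members with no CHR word. The 4 windows below are examples and not the full range. All 4 hold CCAAT words, whereas others, such as those of Nusap1 and E2f1, held no word of any kind. Diaph3, the member with the largest difference, has CCAAT words only. Ccnb2 has CHR and CCAAT words, Cdk1 has words of each kind, and Mcm3 has E2F and CCAAT words without CHR. Each is printed 5′ to 3′ on the gene's own strand, which is the minus strand, with matches in capitals (ATTGG, GCGGGAAA and the like are words read on the opposite strand). The positions are chr14:87141175-87141474 for Diaph3, chr9:70421505-70421804 for Ccnb2, chr10:69352863-69353162 for Cdk1 and chr1:20820263-20820562 for Mcm3.
Diaph3: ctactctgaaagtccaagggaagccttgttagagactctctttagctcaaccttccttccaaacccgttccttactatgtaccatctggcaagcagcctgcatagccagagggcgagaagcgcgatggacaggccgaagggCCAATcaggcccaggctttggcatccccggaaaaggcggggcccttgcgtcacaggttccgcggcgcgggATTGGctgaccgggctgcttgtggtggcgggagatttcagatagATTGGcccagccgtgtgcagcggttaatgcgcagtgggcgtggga
Ccnb2: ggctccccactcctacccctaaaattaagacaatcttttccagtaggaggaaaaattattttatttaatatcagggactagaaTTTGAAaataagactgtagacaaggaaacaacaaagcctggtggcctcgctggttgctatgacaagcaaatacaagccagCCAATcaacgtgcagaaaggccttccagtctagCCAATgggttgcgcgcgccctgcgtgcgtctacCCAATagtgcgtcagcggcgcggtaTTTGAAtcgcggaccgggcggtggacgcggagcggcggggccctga
Cdk1: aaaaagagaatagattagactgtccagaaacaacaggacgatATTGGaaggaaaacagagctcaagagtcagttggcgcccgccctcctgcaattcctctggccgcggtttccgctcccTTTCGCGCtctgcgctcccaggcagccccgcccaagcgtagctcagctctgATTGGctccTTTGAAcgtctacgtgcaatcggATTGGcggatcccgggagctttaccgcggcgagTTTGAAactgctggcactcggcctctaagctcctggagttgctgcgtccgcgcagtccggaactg
Mcm3: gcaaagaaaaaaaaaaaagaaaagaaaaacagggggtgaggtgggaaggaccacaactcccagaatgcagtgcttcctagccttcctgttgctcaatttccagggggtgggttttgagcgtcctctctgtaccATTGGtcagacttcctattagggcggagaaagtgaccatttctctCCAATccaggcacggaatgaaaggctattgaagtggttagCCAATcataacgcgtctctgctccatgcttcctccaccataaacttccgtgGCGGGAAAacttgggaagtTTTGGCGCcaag
A match is a run of letters and was not tested as a binding site. Rb1, the member with the lowest difference, is named without a promoter.

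**Figure D1:**
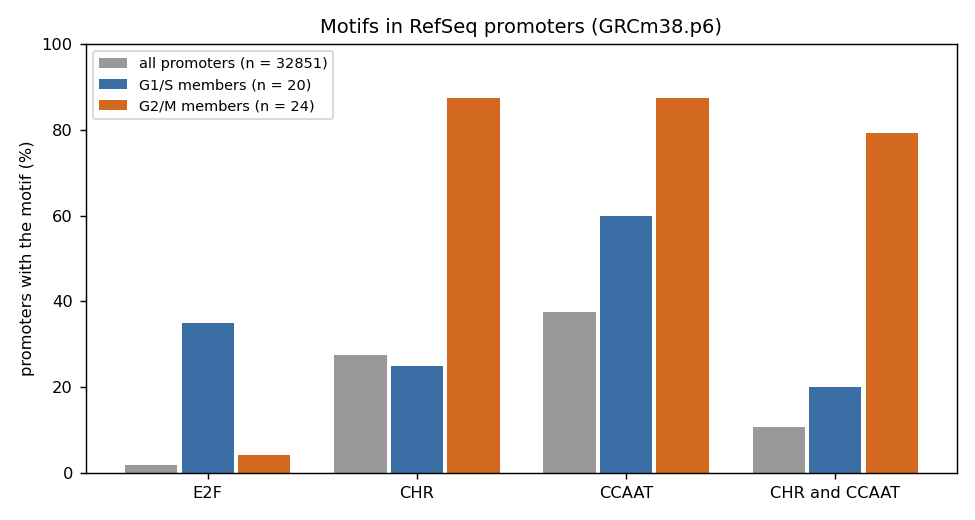
Share of promoter windows (percent, vertical axis) that hold an E2F, a CHR or a CCAAT word, or both CHR and CCAAT, for all 32851 RefSeq promoters (grey), 20 windows of G1/S members (blue) and 24 windows of G2/M members (orange). CHR words were in 87.5% of the G2/M windows and 25% of the G1/S windows, and E2F words in 4.17% and 35%.

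Among the members 1 gene, Diaph3, rose in the arrays labelled Otx2 cKO, by 0.80 ± 0.098 on the log2 scale. The other tested members differed by small amounts that did not pass the test, most of them upward. Of the 46 tested, 1 passed limma's test at an adjusted p of 0.05 in the higher direction and 0 in the lower, beside 0.0825% and 0.127% of all 13341 genes. At an unadjusted p under 0.05, 4 members were higher (Diaph3, Anln, Ccnb2 and Mcm3) and 1 was lower (Rb1), beside 3.94% and 7.1% of all genes. Among 37 members measured on all 7 arrays, all 3 cKO-labelled arrays lay above all 4 controls in 4 (Diaph3, Anln, Ccnb2 and Cdc6), beside 5.03% of genes, and below them in 1 (Rb1), beside 7.31%. These counts are of a few genes each, and nothing further is read from them.

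Most differences were small and above 0. The difference was above 0 in 40 of the 46 members (87%) and in 53.3% of all genes tested, and the median difference was 0.14 over the members and 0.01 over all genes. For G1/S members the median was 0.11, with 17 of 21 above 0, and for G2/M members 0.17, with 23 of 25 above 0. On the probe used, only Diaph3 of the 46 members differed by more than 0.5 in either direction, against 1085 of all 13341 genes. When arrays were centred on their median in place of the 75th percentile, the median over all genes became -0.08, 32 of 46 members stayed above 0 against 33% of all genes, and the medians were 0.01 for G1/S and 0.07 for G2/M. Members share their arrays and are not replicates, so no test was made over the list or between G1/S and G2/M. The counts above 0 by role group below use all arrays and stand beside the same 53.3% of all genes.

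**Figure D2:**
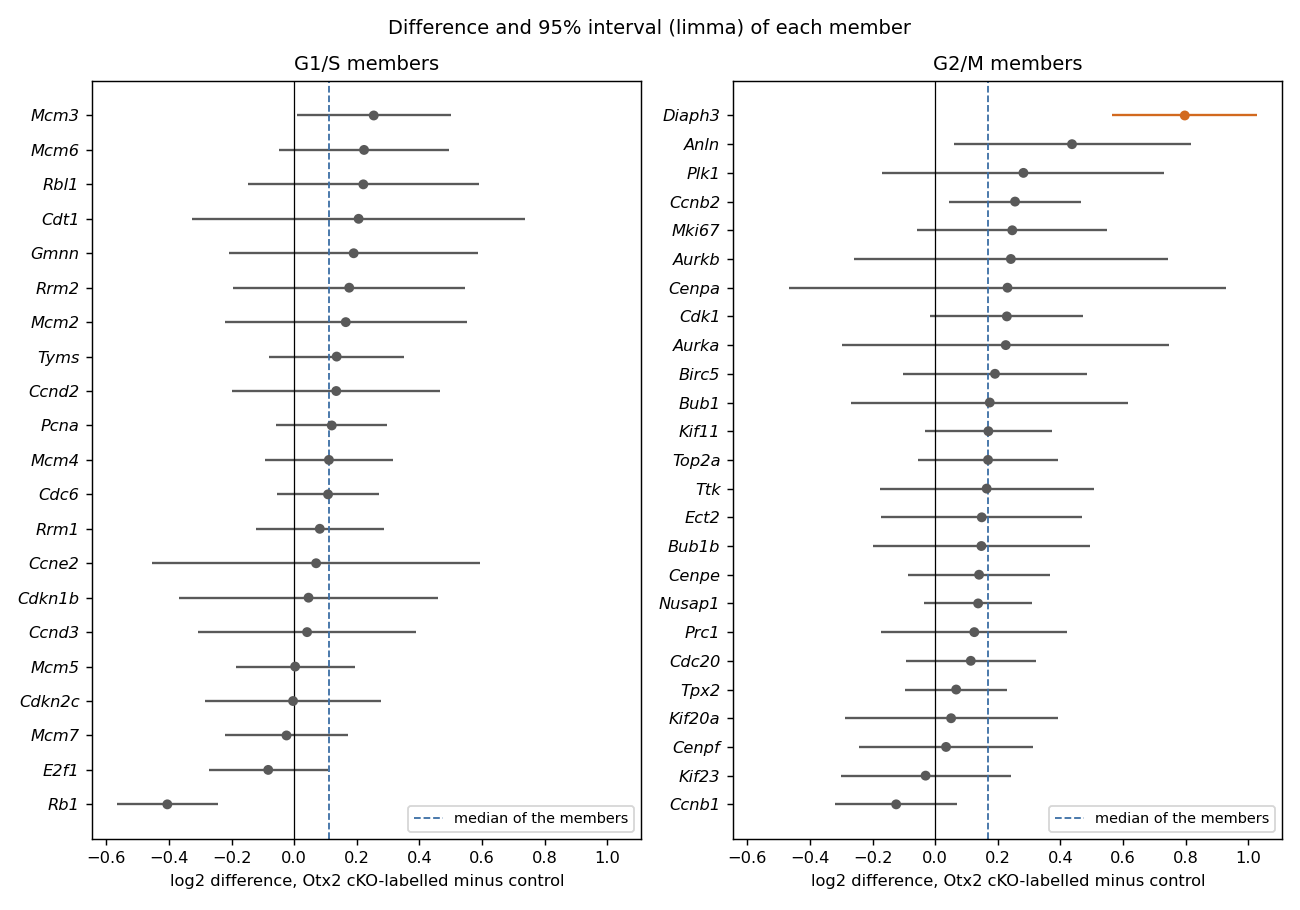
Log2 difference (horizontal axis, cKO-labelled minus control) of each tested member, with 21 G1/S genes on the left and 25 G2/M genes on the right. Points are limma estimates, lines are their 95% intervals and the dashed line is the median of the panel, 0.11 and 0.17. Diaph3 (orange) is the 1 gene past the adjusted threshold.

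Relative to the control mean, the medians of the members were above all controls in cKO 2 and cKO 3, and not in cKO 1. Shifts of all genes between arrays, given below, were not taken out of these medians. For each array, the median over members of the log2 signal minus the mean of the controls was taken over the members measured on all arrays. Over 16 G1/S members it was -0.04, 0.04, 0.02 and -0.04 in control 1 to 4 and -0.04, 0.17 and 0.18 in cKO 1 to 3. cKO 1 lay at the level of the lowest controls, and cKO 2 and cKO 3 lay above all of them. Over 21 G2/M members it was -0.13, 0.09, 0.02 and 0.01 in the controls and 0.04, 0.20 and 0.24 in cKO 1 to 3. cKO 1 again lay among the controls, of which control 1 was the lowest. Of these 37 members, 18 were above the control mean in cKO 1, 34 in cKO 2 and 32 in cKO 3. cKO 3 was the highest array for 21 of the 37 members, 14 of them among the 21 G2/M genes, and control 1 the lowest for 14. The same median over all 12673 genes measured on every array was -0.03, 0.00, 0.04 and -0.01 in the controls and -0.06, 0.09 and -0.01 in cKO 1 to 3. Over all genes cKO 1 was thus the lowest array and cKO 2 the highest. The medians of the members are not corrected for these shifts. Over G2/M members cKO 1 (0.04) lay below control 2 (0.09) by less than it did over all genes (-0.06 and 0.00). The place of cKO 1 among the controls for G2/M thus depends on the missing correction.

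The differences were also taken within slides and within litter 2. Slide 1 holds cKO 1 as its single cKO-labelled array, and within it the median difference was -0.02 for G1/S and 0.05 for G2/M, with 23 of 41 members above 0 against 41.6% of all genes. Within slide 2 the medians were 0.16 and 0.20, with 35 of 40 members above 0 against 55.3% of genes. Within litter 2, which holds cKO 1 and cKO 3, they were 0.06 and 0.08, with 27 of 39 above 0 against 37.7% of genes. With slide as a block they were 0.11 and 0.15. Leaving out cKO 2 took the G1/S median to 0.07 and the G2/M median to 0.12. Leaving out cKO 1 took them to 0.16 and 0.24. The median over all genes moved as well, to -0.04 within slide 1, 0.03 within slide 2 and -0.06 within litter 2. It was -0.03 without cKO 2 and 0.06 without cKO 1. These shifts of all genes are part of the changes in the member medians and were not taken out.

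**Figure D3:**
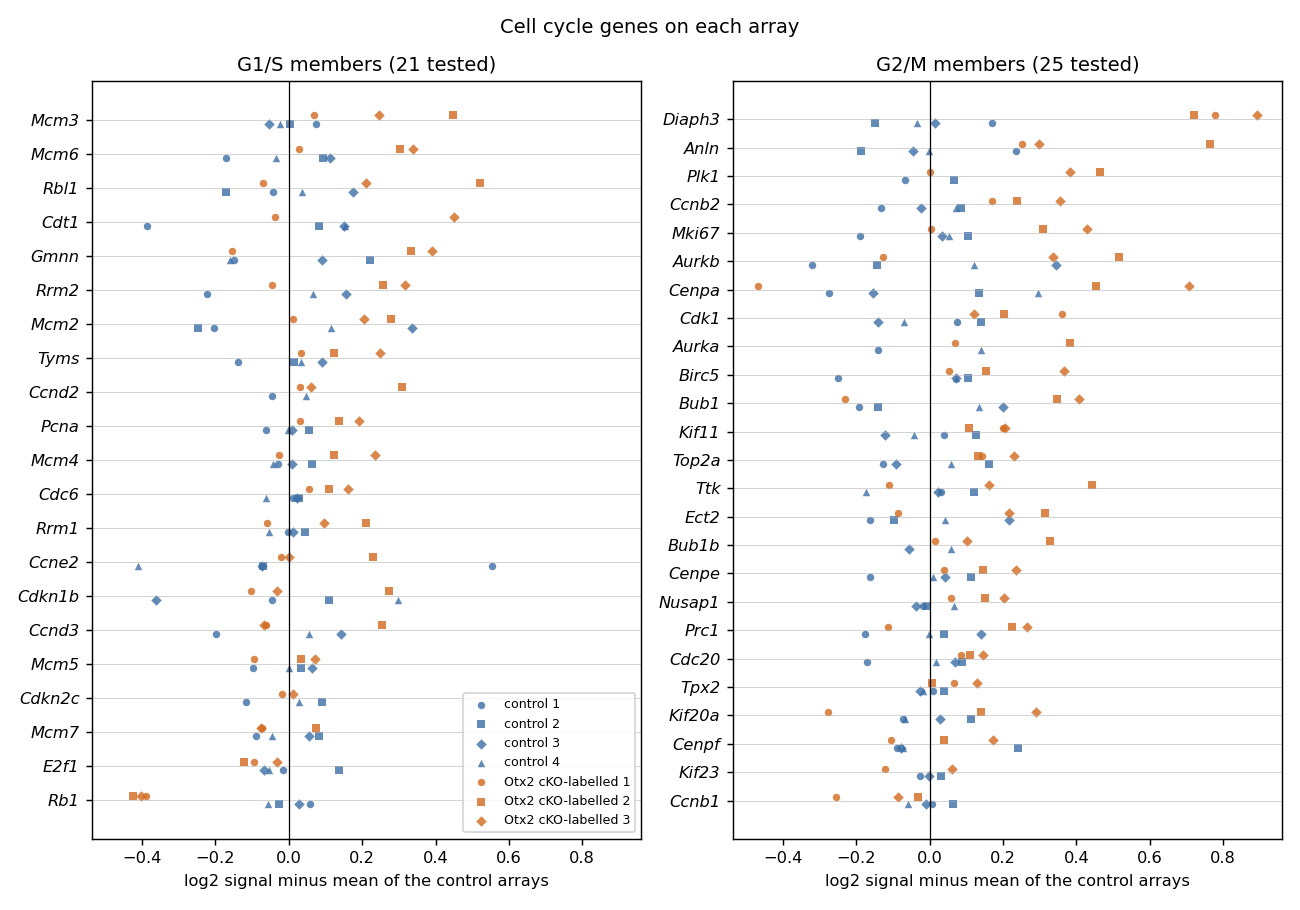
Log2 signal minus the mean of the control arrays (horizontal axis) for every tested member on every array with an unflagged spot, with G1/S on the left and G2/M on the right, sorted by the difference. Blue symbols are control 1 to 4 and orange symbols cKO 1 to 3, 1 shape for each replicate number. The orange circles, cKO 1, lie among the controls for most members, while the orange diamonds, cKO 3, are the highest for 21 of the 37 genes measured on all arrays.

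Markers of other cell types and states were read on the same arrays, because bulk tissue cannot tell fewer cells of a type from less RNA per cell. Over all genes tested, 53.3% had a difference above 0, and 3.94% were higher and 7.1% lower with an unadjusted p under 0.05. Limma's test called 0.0825% higher and 0.127% lower. The marker lists are short, and nothing further is read from their counts. Of 8 progenitor markers, such as Sox2, Nes, Vim and Fabp7, 8 were tested and 0 passed limma's test. With an unadjusted p under 0.05, 1 was higher (Hes1, 0.57 ± 0.18) and 0 were lower. Of the progenitor markers 7 had a difference above 0 (median 0.15), all but Sox2 (-0.04). Their median per array was -0.07, 0.02, 0.07 and 0.01 in control 1 to 4 and 0.05, 0.10 and 0.29 in cKO 1 to 3, so cKO 3 was the highest array here too. The summed linear signal of the 8, in units of the 75th percentile, ran from 214 to 263 in controls and from 249 to 304 in cKO-labelled arrays. Of 10 neuron markers 9 were tested, 0 passed, 0 were higher and 2 lower with an unadjusted p under 0.05, and 6 had a difference below 0 (median -0.16). Ina had no named probe. The summed signal of the 8 neuron markers with all values ran from 194 to 217 in controls and from 167 to 187 in cKO-labelled arrays, with no overlap, and none of these 8 was at 0. Bright markers, Tubb3 above all, weigh most in this sum. The median of the 8 did overlap, at -0.0037, 0.0147, 0.0255 and -0.0315 in the controls and -0.0762, -0.2455 and 0.0158 in cKO 1 to 3. The 3 neuron markers with differences above 0 were Snap25 (0.45), Gap43 (0.11) and Map2 (0.02). Mesenchyme and pericyte markers varied most between arrays, with medians of 0.46, -2.15, 0.60 and 0.84 in the controls and -1.71, 2.09 and -0.97 in cKO 1 to 3, and sums of 2.83 to 23.2 and 2.96 to 45.5. cKO 2 was the highest array here and also in the medians of endothelial (0.83), erythroid (0.90) and microglia markers (0.60). Differences were above 0 in 1 of 8 mesenchyme and pericyte, 3 of 6 endothelial, 5 of 5 erythroid and 1 of 4 microglia markers. In these lists 0 passed limma's test. Of the 10 subpallial markers, 1 was lower and 0 higher by limma's test, and 8 had a difference below 0 (median -0.06). Lhx6, a homeobox gene of neurons from the medial ganglionic eminence, fell by 1.18 ± 0.15 (limma adjusted p = 0.0491). The GABA-synthesizing enzymes Gad1 and Gad2 differed by -0.67 ± 0.13 and -0.34 ± 0.078, with all 3 cKO-labelled arrays below the controls but without passing the test (limma adjusted p = 0.171 and 0.243). The summed signal of the 8 subpallial markers with all values ran from 109 to 122 in controls and from 104 to 117 in cKO-labelled arrays. All 3 tested choroid plexus markers had differences above 0, 0.68 ± 0.43 for Prlr, 0.63 ± 0.38 for Kl and 0.27 ± 0.19 for Folr1, with overlapping groups and 0 past limma's test, also with an unadjusted p under 0.05. Their summed signal ran from 0.0779 to 0.121 in controls and from 0.110 to 0.175 in cKO-labelled arrays. Kl was at the floor of -7.45 in control 2 and cKO 3, and was well above background on 3 arrays only. The part of these cell types in the cell cycle differences was not tested.

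**Figure D4:**
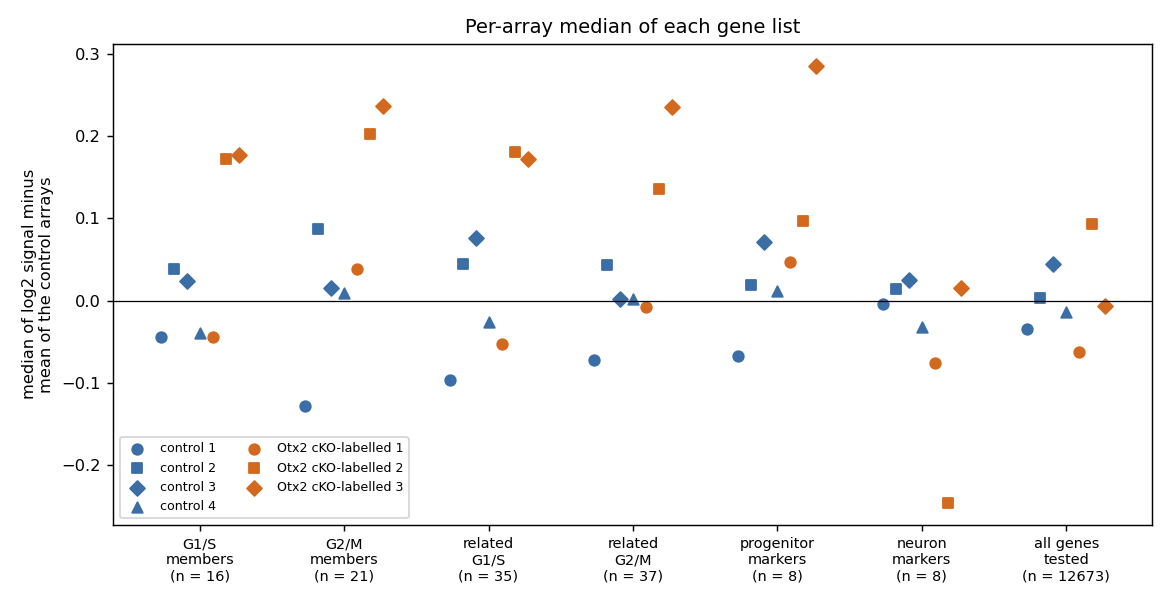
Median over the genes of a list of the log2 signal minus the control mean (vertical axis) on each array, for G1/S and G2/M members, other genes of both phases, progenitor markers, neuron markers and all genes measured on every array. Blue symbols are controls, orange symbols cKO-labelled arrays. cKO 2 and cKO 3 lie above all controls for G1/S (0.17 and 0.18) and G2/M members (0.20 and 0.24), and cKO 1 does not. All genes measured on every array lie at -0.06, 0.09 and -0.01 in cKO 1 to 3, a shift not taken out here.

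The D- and E-type cyclins start the cycle by activating the kinases of G1. Of 5 members 3 were tested, with differences of 0.04 to 0.13 and 0 past limma's test in either direction, also with an unadjusted p under 0.05. Ccnd2, a D-type cyclin, had unflagged log2 signals of 5.87 and 5.96 in control 1 and control 4 and 5.94, 6.22 and 5.97 in cKO 1 to 3. cKO 2 was the highest and the groups overlapped (difference 0.13 ± 0.13, SE, limma adjusted p = 0.756). Its second probe, measured on all arrays, differed by 0.13, and the third by 0.02. Ccnd3 read 2.69, 3.03 and 2.95 in control 1, 3 and 4 (control 2 was flagged) and 2.83, 3.15 and 2.82 in cKO 1 to 3, with overlapping groups (0.04 ± 0.14). Ccne2, an E-type cyclin, read 0.14, -0.49, -0.49 and -0.83 in the controls and -0.44, -0.19 and -0.42 in cKO 1 to 3. Its controls spread over a wider range than the cKO-labelled arrays, which lay inside it (0.07 ± 0.22). The sign of the Ccnd3 and Ccne2 differences turned when cKO 2 was left out. Ccne1, untested, had its bright probe marked as an outlier on 3 arrays of each group. With those spots kept the difference was 0.04 (limma adjusted p = 0.885), and its dim second probe differed by -0.03.

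The pocket proteins, E2F and the kinase inhibitors hold or release the G1 brake, and Rb1 in this group had the most negative difference of all members. Rb1, the retinoblastoma protein that binds E2F, had log2 signals of 3.02, 2.94, 2.99 and 2.91 in control 1 to 4 and 2.58, 2.54 and 2.56 in cKO 1 to 3. All 3 cKO-labelled arrays lay below all controls, and both groups were narrow (SD 0.05 and 0.02). The difference of -0.41 ± 0.068 (SE, 95% interval -0.57 to -0.24, limma adjusted p = 0.115) did not pass the threshold. It was -0.40 within each slide and also within litter 2, and a second, dim Rb1 probe differed by -0.32. It passed with a mean-variance trend in the moderation (limma adjusted p = 0.0362) and with no filter on dim probes (0.047). Over all 23 alternatives the adjusted p ran from 0.0362 to 1 and the difference from -0.50 to -0.36. Rbl1, its relative p107, read 2.16, 2.03, 2.38 and 2.24 in the controls and 2.13, 2.73 and 2.42 in cKO 1 to 3. cKO 2 and cKO 3 were the highest, and cKO 1 lay inside the controls (0.22 ± 0.16, limma adjusted p = 0.653). E2f1 read 0.10, 0.25, 0.05 and 0.06 in the controls and 0.02, -0.01 and 0.08 in cKO 1 to 3, overlapping (-0.08 ± 0.080). The second E2f1 probe differed by 0.15, opposite in sign. Cdkn1b, the kinase inhibitor p27, read -0.65, -0.50, -0.97 and -0.31 in the controls and -0.71, -0.33 and -0.64 in cKO 1 to 3. Its cKO-labelled arrays lay inside the range of the controls (0.05 ± 0.17, sign turned without control 3 or without cKO 2). Cdkn2c, the inhibitor p18, had means of 1.27 and 1.27 without the flagged spots of control 3 and cKO 2. In this group 2 of 5 differences were above 0, the lowest share of any role group (40%).

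Licensing factors load and limit the replicative helicase, and 9 of these 10 members had a difference above 0 (median 0.14), with 0 past limma's test and 1 higher and 0 lower with an unadjusted p under 0.05. Mcm3, a subunit of the MCM helicase, read 2.03, 1.96, 1.91 and 1.94 in the controls and 2.03, 2.41 and 2.21 in cKO 1 to 3. cKO 2 and cKO 3 were above all controls, whereas cKO 1 read as control 1 did. The difference was 0.25 ± 0.10 (SE, 95% interval 0.01 to 0.50, limma adjusted p = 0.442), 0.03 within slide 1 and 0.38 within slide 2. Mcm6, another subunit, read 5.14, 5.40, 5.42 and 5.28 in the controls and 5.34, 5.61 and 5.65 in cKO 1 to 3. The same pair of arrays was the highest (0.22 ± 0.11, limma adjusted p = 0.530). The other MCM subunits ranged from -0.02 for Mcm7 through 0.00 for Mcm5 and 0.11 for Mcm4 to 0.16 for Mcm2, and the 95% intervals of the 6 subunits overlapped. Pcna, the sliding clamp of replication, read 5.62, 5.74, 5.69 and 5.68 in the controls and 5.72, 5.82 and 5.88 in cKO 1 to 3. cKO 1 lay below control 2, and cKO 2 and cKO 3 lay above it (0.12 ± 0.075, limma adjusted p = 0.615). Cdc6, a helicase loader, read 0.93, 0.94, 0.93 and 0.85 in the controls and 0.97, 1.02 and 1.07 in cKO 1 to 3, without overlap but by a small amount (0.11 ± 0.069, limma adjusted p = 0.624). A second, dimmer Cdc6 probe differed by 0.24. Cdt1, the partner of Cdc6, differed by 0.21 ± 0.22 without the flagged spot of cKO 2, and the licensing inhibitor Gmnn by 0.19 ± 0.17. Within slide 1 Gmnn (-0.19), Mcm4 (-0.04), Mcm5 (-0.06) and Mcm7 (-0.07) were below 0 and the other licensing members above 0.

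Enzymes of deoxynucleotide synthesis supply S phase, and all 3 members had differences above 0 (0.08 to 0.18), with 0 past limma's test in either direction, also with an unadjusted p under 0.05. Tyms, thymidylate synthase, read 3.66, 3.81, 3.88 and 3.83 in the controls and 3.83, 3.92 and 4.04 in cKO 1 to 3. cKO 1 lay among the controls (0.14 ± 0.091, limma adjusted p = 0.635), and a second probe differed by 0.10. Rrm2, the S-phase subunit of ribonucleotide reductase, read 3.44, 3.82 and 3.73 in control 1, 3 and 4 (control 2 was flagged) and 3.62, 3.92 and 3.98 in cKO 1 to 3. cKO 2 and cKO 3 were the highest arrays (0.18 ± 0.15). Rrm1, the large subunit, read 4.27, 4.31, 4.28 and 4.22 in the controls and 4.21, 4.48 and 4.36 in cKO 1 to 3. cKO 1 was the lowest of all arrays and cKO 2 the highest (0.08 ± 0.086).

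Mitotic cyclins and Cdk1 drive entry into mitosis, and they did not share a direction. Of 3 tested, 2 differences were above 0 and 1 below, 0 passed limma's test, and 1 was higher and 0 lower with an unadjusted p under 0.05. Ccnb2, cyclin B2, read 3.80, 4.02, 3.91 and 4.01 in control 1 to 4 and 4.10, 4.17 and 4.29 in cKO 1 to 3. All cKO-labelled arrays were above all controls (0.25 ± 0.089, SE, 95% interval 0.04 to 0.47, limma adjusted p = 0.377), and the difference was 0.19 within slide 1 and 0.27 within slide 2. Cdk1, the mitotic kinase, read 2.32, 2.39, 2.11 and 2.18 in the controls and 2.61, 2.45 and 2.37 in cKO 1 to 3. cKO 1 was the highest here and cKO 3 lay just below control 2 (0.23 ± 0.10, limma adjusted p = 0.474), and the dim second probe differed by 0.05. Ccnb1, cyclin B1, read 2.71, 2.77, 2.69 and 2.65 in the controls and 2.45, 2.67 and 2.62 in cKO 1 to 3. cKO 1 was the lowest array, and cKO 2 lay inside the controls (-0.12 ± 0.082, limma adjusted p = 0.633). The other Ccnb1 probes differed by -0.10 and -0.13. Ccna2, cyclin A2, untested, had its spot marked as an outlier on all 4 controls. With those spots kept it read 4.92, 5.0, 4.76 and 4.73 in the controls and 4.87, 4.85 and 4.86 in cKO 1 to 3, inside the range of the controls (0.01 ± 0.090, limma adjusted p = 0.978).

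Mitotic kinases and checkpoint proteins time the attachment and release of chromosomes, and all 8 members had differences above 0, from 0.11 to 0.28 (median 0.18), with 0 past limma's test in either direction, also with an unadjusted p under 0.05. Plk1, the Polo-like kinase, had unflagged values of 4.70 and 4.83 in control 1 and control 2 and 4.76, 5.23 and 5.15 in cKO 1 to 3. cKO 1 lay between these controls (0.28 ± 0.17, limma adjusted p = 0.627). Both controls were on slide 1 with cKO 1, whereas cKO 2 and cKO 3 were on slide 2. The Plk1 difference was 0.00 within slide 1 and with slide as a block. Birc5, survivin, a subunit of the chromosomal passenger complex, read 4.78, 5.14, 5.10 and 5.10 in the controls and 5.08, 5.18 and 5.40 in cKO 1 to 3. Control 1 stood below the rest, and cKO 1 lay among the controls (0.19 ± 0.12, limma adjusted p = 0.628). Cdc20, which activates the anaphase-promoting complex, read 5.07, 5.33, 5.31 and 5.25 in the controls and 5.32, 5.35 and 5.38 in cKO 1 to 3. The cKO-labelled arrays were close to each other, and cKO 1 lay just below control 2 (0.11 ± 0.087, limma adjusted p = 0.677). The Aurora kinases Aurka and Aurkb differed by 0.23 ± 0.19 (without the flagged spots of control 2, control 3 and cKO 3) and 0.24 ± 0.21, and the checkpoint kinases Bub1 and Ttk by 0.17 ± 0.19 and 0.16 ± 0.14. Bub1b, the checkpoint protein BubR1, differed by 0.15 ± 0.13 without the flagged spots of control 1 and control 2. Within slide 1 Bub1 (-0.07) and Ttk (-0.19) were below 0, and Aurkb (0.11), Birc5 (0.13) and Cdc20 (0.13) above.

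Proteins of mitotic chromosomes and centromeres include Mki67, the Ki-67 antigen used to mark cycling cells. All 5 differences were above 0 (median 0.17), with 0 past limma's test in either direction, also with an unadjusted p under 0.05. Mki67 read 4.81, 5.11, 5.04 and 5.05 in the controls and 5.01, 5.31 and 5.43 in cKO 1 to 3. cKO 2 and cKO 3 were above all controls and cKO 1 was not (0.25 ± 0.13, SE, 95% interval -0.06 to 0.55, limma adjusted p = 0.535). Within slide 1 the Mki67 difference was 0.05, within slide 2 0.33 and within litter 2 0.15, and a second probe differed by 0.18. Top2a, the topoisomerase that untangles sister chromatids, read 1.51, 1.79, 1.54 and 1.69 in the controls and 1.78, 1.77 and 1.86 in cKO 1 to 3. Control 2 exceeded cKO 1 and cKO 2 (0.17 ± 0.095, limma adjusted p = 0.569), and a second, dimmer probe differed by 0.25. Cenpe, a kinetochore motor, read 3.97, 4.24, 4.17 and 4.14 in the controls and 4.17, 4.28 and 4.37 in cKO 1 to 3. cKO 1 lay inside the controls (0.14 ± 0.095), and its other probes differed by 0.35 and 0.49. Cenpa, the centromeric histone, had the widest spread of these, from 0.94 in cKO 1 to 2.12 in cKO 3 (0.23 ± 0.29). Cenpf differed by 0.03 ± 0.12. Within slide 1 Cenpa (-0.40) and Cenpf (-0.18) were below 0, and Top2a (0.13), Cenpe (0.06) and Mki67 (0.05) above.

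Spindle proteins differed by 0.07 to 0.17, all 3 above 0, with 0 past limma's test in either direction, also with an unadjusted p under 0.05. Kif11, the motor that separates spindle poles, read 1.18, 1.26, 1.02 and 1.09 in the controls and 1.34, 1.24 and 1.34 in cKO 1 to 3. cKO 2 lay just below control 2 and the other cKO-labelled arrays above it (0.17 ± 0.085, limma adjusted p = 0.524). A second, far dimmer Kif11 probe differed by 0.74, with control 1 near the floor at -7.18 and cKO 1 inside the controls. Nusap1, a microtubule bundler, read 3.31, 3.32, 3.29 and 3.39 in the controls and 3.38, 3.48 and 3.53 in cKO 1 to 3. cKO 1 lay just below control 4 (0.14 ± 0.073, limma adjusted p = 0.547). Tpx2, an activator of Aurora A, read 3.10, 3.13, 3.06 and 3.07 in the controls and 3.16, 3.10 and 3.22 in cKO 1 to 3, with overlapping groups (0.07 ± 0.069, -0.03 when arrays were centred on their median).

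Cytokinesis genes held both of the largest differences. Diaph3, a formin that nucleates actin filaments and takes part in the contractile ring, had log2 signals of -1.69, -2.0, -1.84 and -1.89 in control 1 to 4 and -1.08, -1.13 and -0.96 in cKO 1 to 3. All cKO-labelled arrays, cKO 1 included, were above all controls, and the gap between the groups was wider than the spread within either (SD 0.13 and 0.09). Diaph3 rose by 0.80 ± 0.098 (SE, n = 4 and 3, 95% interval 0.56 to 1.03), an increase of 73.8% (limma adjusted p = 0.0491). A second, dimmer Diaph3 probe read -4.48, -4.84, -4.66 and -4.77 in the controls and -3.79, -3.42 and -3.57 in cKO 1 to 3, a difference of 1.10 without overlap. The Diaph3 difference was 0.77 within slide 1, 0.82 within slide 2 and 0.90 within litter 2, so unlike the median of the members it was as large in the slide of cKO 1 as in the other. The call was at the edge of the threshold: it held in 6 of 23 alternatives (adjusted p 0.0183 to 1, difference 0.70 to 0.95). Leaving out any 1 array ended it. Without control 1, 2, 3 or 4 the difference was 0.85, 0.75, 0.80 or 0.79 (limma adjusted p = 0.0630, 0.119, 0.201 and 0.196). Without cKO 1, 2 or 3 it was 0.81, 0.84 or 0.75 (limma adjusted p = 0.0915, 0.106 and 0.211). The call of Otx2 also ended whenever 1 array was left out (limma adjusted p = 0.0560 to 0.156). Without control 2, 3 or 4, or without cKO 3, 0 of all genes tested were called, Lhx6 included.

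Anln, anillin, a scaffold of the contractile ring, read -1.29, -1.71, -1.57 and -1.52 in the controls and -1.27, -0.76 and -1.23 in cKO 1 to 3. cKO 2 stood highest, and cKO 1 exceeded control 1 by little (0.44 ± 0.16, SE, 95% interval 0.06 to 0.82, limma adjusted p = 0.397). The second, dimmer Anln probe differed by -0.06, so the probes disagreed. Ect2, which activates RhoA at the furrow, read 2.53, 2.60, 2.91 and 2.74 in the controls and 2.61, 3.01 and 2.91 in cKO 1 to 3, with overlapping groups (0.15 ± 0.14, limma adjusted p = 0.733). Its second, dimmer probe differed by 0.46, also with overlap. The midzone proteins Prc1, Kif20a and Kif23 differed by 0.12 ± 0.12, 0.05 ± 0.14 and -0.03 ± 0.10, for Kif23 without the flagged spots of control 4 and cKO 2. Of the 6 cytokinesis genes, 1 was higher and 0 lower by limma's test, and 5 had a difference above 0. Within slide 1 Kif20a (-0.30), Kif23 (-0.12) and Prc1 (-0.04) were below 0, and Diaph3, Anln and Ect2 above.

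**Figure D5:**
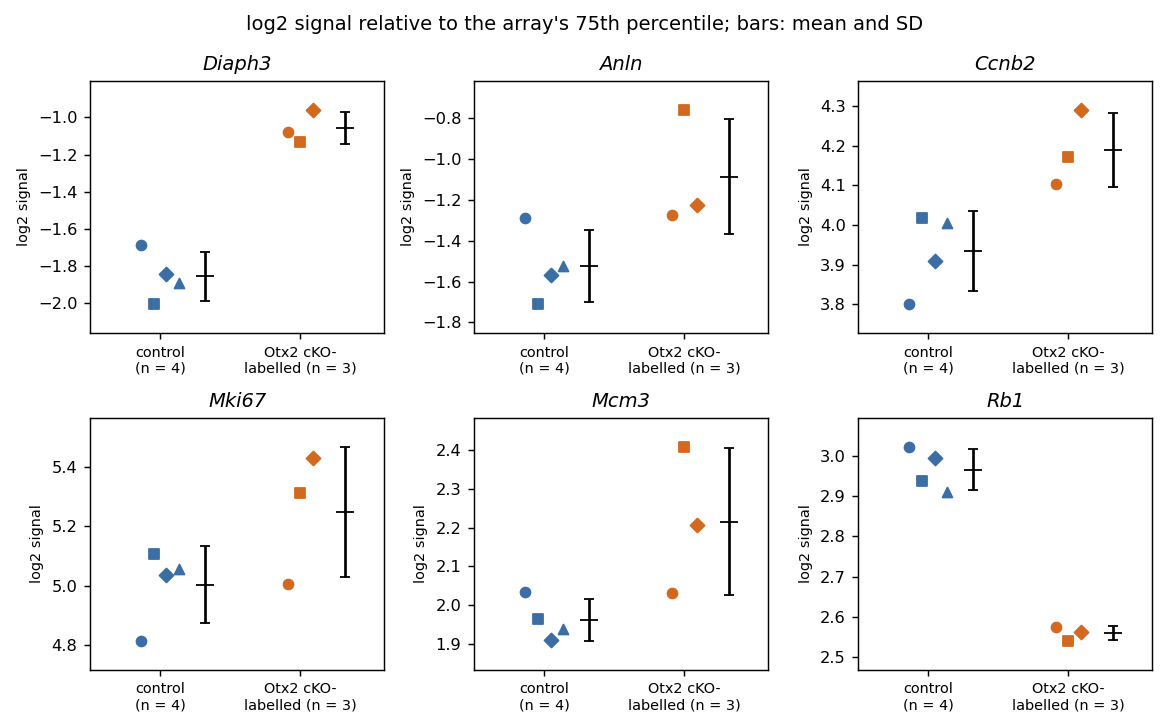
Log2 signal relative to the array's 75th percentile (vertical axis, a separate scale in each panel) of Diaph3, Anln, Ccnb2, Mki67, Mcm3 and Rb1. Points are arrays, blue for the 4 controls and orange for the 3 labelled Otx2 cKO, with the mean and SD of each group beside them. Diaph3 is separated by the widest gap, Rb1 is lower in all 3 cKO-labelled arrays, and for Mki67 and Mcm3 the orange circle, cKO 1, lies among the controls.

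Where a member had a further probe, that probe mostly gave the same sign. There were 28 members with 1 probe and 20 with more, and of 20 other probes above the background filter 16 had the sign of the probe used. The exceptions were probes of Anln, E2f1, Bub1 and Kif23.

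Other genes of the same pathways, 90 in a list that shares none with the 49, differed on a similar scale. Of 81 tested, 0 passed limma's test in either direction, and 8 were higher and 3 lower with an unadjusted p under 0.05, beside 3.94% and 7.1% of all genes. The difference was above 0 in 66 of them (81.5%), with a median of 0.12, beside 53.3% and 0.01 over all genes. The median was 0.10 for 39 genes of G1/S and 0.12 for 42 of G2/M. Over the arrays the G1/S median was -0.10, 0.04, 0.08 and -0.03 in control 1 to 4 and -0.05, 0.18 and 0.17 in cKO 1 to 3, and the G2/M median was -0.07, 0.04, 0.00 and 0.00 and then -0.01, 0.14 and 0.23. The same arrays, cKO 2 and cKO 3, were the highest in both. The medians over all genes (-0.06, 0.09 and -0.01 in cKO 1 to 3) were not taken out here either. In this list 9 of 72 genes had all cKO-labelled arrays above the controls and 1 had them below, beside 5.03% and 7.31% of all genes.

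The 3 genes of each phase with the smallest unadjusted p in that list are given here. Dnmt1, the maintenance DNA methyltransferase, read 3.03, 3.19, 3.10 and 3.06 in the controls and 2.84, 2.74 and 2.74 in cKO 1 to 3. It was the 1 gene of the list with all cKO-labelled arrays below the controls (-0.32 ± 0.075, SE, limma adjusted p = 0.254). Gins2, a subunit of the replicative helicase complex, read 0.47, 0.75, 0.31 and 0.34 in the controls and 0.96, 0.76 and 0.86 in cKO 1 to 3. The groups did not overlap, although control 2 and cKO 2 were close (0.39 ± 0.13, limma adjusted p = 0.344). Pola1, the catalytic subunit of DNA polymerase alpha, read 1.06, 1.30, 1.07 and 1.46 in the controls and 1.60, 1.45 and 1.72 in cKO 1 to 3, and cKO 2 lay just below control 4 (0.37 ± 0.13). Cdc25c, a phosphatase that activates Cdk1, read -0.49, -0.46, -0.79 and -0.52 in the controls and -0.22, -0.28 and -0.20 in cKO 1 to 3. All cKO-labelled arrays were higher (0.33 ± 0.10, limma adjusted p = 0.319). Dlgap5, a spindle protein, read -1.62, -1.54, -1.55 and -1.49 in the controls and -1.47, -1.24 and -1.12 in cKO 1 to 3, without overlap (0.27 ± 0.10). Ncapg, a condensin subunit, read 3.13, 3.37, 3.30 and 3.17 in the controls and 3.54, 3.36 and 3.71 in cKO 1 to 3. cKO 2 lay just below control 2 (0.29 ± 0.11).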

How the data were processed

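Per the labels' protocols, amplified Cy3-labelled RNA of 1 embryo was hybridised to each Agilent mouse array. Per the file headers, the deposited spot intensity was made by Agilent Feature Extraction 10.7.3.1 with background subtraction and detrending inside each array; version 10.5 is named in the submitters' processing notes. The authors' deposited table of log2 values, with scaling not given here, served as an alternative. Control spots and spots marked as outliers (1.24% to 2.51% per array) were left out, the spots of a probe were averaged, and signals were taken to log2 relative to the 75th percentile of their array, with a floor of -7.45. Probes were named through RefSeq accessions of the GRCm38.p6 gene table, used for names only: of 41174 probes 24844 had 1 symbol, 0 several and 16330 none. Groups were compared by limma's lmFit and eBayes (limma 3.58.1, R 4.3.3), with no term but group, over all 13341 genes with Benjamini-Hochberg adjustment and a threshold of 0.05. SE is limma's moderated standard error, with a median of 0.13. The steps were tested on simulated data. Precision is limited by the number of arrays. The labels tie each array to its own embryo, so p-values measure the spread between embryos.

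The members, the role groups, the further cell cycle genes and the marker lists were chosen with earlier results of these data known. Values on every array are given for members past the threshold, for the up to 3 members of a role group with the smallest unadjusted p, for Mki67, Pcna, Ccnd2, Ccnb1 and Cdkn1b, and for the 3 further genes of each phase with the smallest unadjusted p. Cdc6 was added because its groups do not overlap, and Cenpa's range for its spread, both after their values were seen. Replicate numbers did not pair the arrays. Alternatives were leaving out each array, blocks and subsets by slide, litter and replicate number, other background correction, scaling, probe and filter rules, the authors' table, a variance trend and array weights.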

Additional observations from a re-analysis of the deposited data

Results flagged for a closer look

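Among 40 results with a value in all 4 controls (members and the G1/S and G2/M medians per array), 4 had 1 control set apart from the other controls, measured as its gap to the nearest of them over the range of the group. By chance about 1 in 20 such groups is set apart this far. For Cenpf control 2 was high, at -1.99 beside -2.32, -2.31 and -2.30 (ratio 0.948). For Birc5 control 1 was low, at 4.78 beside 5.14, 5.10 and 5.10 (ratio 0.907). For Cdt1 control 1 was low as well, at 2.66 beside 3.13, 3.19 and 3.20 (ratio 0.866). For Cdc6 control 4 was low, at 0.85 beside 0.93, 0.94 and 0.93 (ratio 0.831). None of these 4 genes passed limma's test with all arrays.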

How the results depend on the processing

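Over 23 alternatives, of which 1 (normexp on the median spot signal, since the files hold no mean signal) was chosen after seeing the data, the count of members called higher stayed at 1 in 6 and was 0 in 17: leaving out each array (0 to 0), the slide block, either slide alone, litter 2 alone, quantile normalization, median centring, the authors' value table, flagged spots kept, no filter on dim probes and the replicate block. The count called lower, 0, became 1 (Rb1) with no filter on dim probes and with the variance trend. The G1/S median was -0.025 within slide 1 and 0.013 with median centring, and the G2/M median was 0.045 within slide 1; leaving out 1 array gave 0.070 to 0.16 and 0.12 to 0.24. Same-numbered arrays deviated from their group means with correlations of 0.11, -0.53 and 0.03, so the numbers do not pair them. With the replicate block 0 members were called higher (Diaph3 0.79, limma adjusted p = 0.321), Ccnd3 was -0.038 and Ccne2 -0.068. Small differences of other settings that changed sign were as follows. With 1 array left out, Ccnd3 ran from -0.065 to 0.11 (below 0 without control 1 or cKO 2), Ccne2 from -0.068 to 0.25 (without control 4 or cKO 2) and Cdkn1b from -0.075 to 0.14 (without control 3 or cKO 2). Within slide 1 Ccne2 was -0.26, Cdkn1b -0.14 and Rrm1 -0.081, within slide 2 Ccnd3 was -0.0062, and within litter 2 Rrm1 was -0.011. Median centring gave -0.066 for Ccnd3, -0.027 for Ccne2, -0.052 for Cdkn1b, -0.016 for Rrm1 and -0.030 for Tpx2. Cdkn1b was -0.12 in the authors' table and -0.11 with flagged spots kept, Ccnd3 was -0.050 with array weights, and E2f1 was 0.033 with the mean of its probes. The cause was not tested. Over all genes, calls ran from 0 higher and 0 lower (8 alternatives, 4 of them with 1 array left out) to 14 higher and 36 lower with the variance trend, beside 11 and 17; quantile normalization gave 7 and 17. In slide 1 alone the single cKO-labelled array is assumed to vary like the controls. Every value rests on at most 7 arrays.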

Other observations

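Diaph3 lies on the chromosome of Otx2. Of the 28 genes past the threshold in either direction, 20 have a RefSeq promoter (GRCm38.p6). Of these 20, 3 were on chromosome 14, which holds 3.27% of the 10623 tested genes with such an entry. These were Otx2 (promoter at chr14:48667595-48667894), Ccnb1ip1 (chr14:50795679-50795978) and Diaph3 (chr14:87141175-87141474), with log2 differences of 1.52, 0.85 and 0.80, all higher in the arrays labelled Otx2 cKO. The share called was 0.865% of 347 genes on chromosome 14 and at most 0.437% on any other chromosome of the table. Otx2, the gene that the labels name as deleted, and Ccnb1ip1 are no members and were named after their values were seen. The 3 genes were counted because they were called, so these shares are no test, and nothing is read from them.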
